A study of Mus musculus with 8 samples.

Results

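The genes described here are 48 genes of the interferon response and of antigen presentation, a list given by gene name. They were looked up by Ensembl identifier in a table of mRNA counts for 21915 genes, where 47 of the 48 had a row (Psmb9, an interferon-induced proteasome subunit, was not analysed here). The list holds 7 sensors and RNA-binding proteins, 4 transcription factors, 24 antiviral effectors, 6 modifiers that act through ubiquitin, ISG15 or ADP-ribose, and 7 genes of antigen presentation.

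The table holds 4 libraries of poly(A) RNA from Hepa 1-6, a mouse hepatoma cell line. Kap1 knock-down (KD) cells carried a pLKO lentiviral vector that encodes a short hairpin RNA against Kap1, and control cells carried the empty vector (the labels call it a control shRNA, and one label field speaks of transfection and another of transduction). Both groups were selected with puromycin and collected 5 days after transduction, with 2 libraries per group, numbered replicate 1 and replicate 2. Nothing in the labels says that the libraries of a group came from separate cultures, so the p-values measure only the spread between these libraries, which may be technical.

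KAP1, encoded by Trim28, is a corepressor that KRAB zinc finger proteins bring to chromatin, where it helps to silence endogenous retroelements. RNA or DNA copies of such elements can be bound by the sensors RIG-I, MDA5 and cGAS, which signal through MAVS or STING to IRF3 and to the production of type I interferon. Interferon acts through its receptor, JAK1 and TYK2 on a complex that contains STAT2 and IRF9 and binds the interferon-stimulated response element (ISRE) in front of antiviral genes, which then rise together. A rise of the listed genes on Kap1 KD would therefore be one readout of such a response, and that is the question the comparison addresses.

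The 4 libraries summed to between 41566888 and 53605115 counts. Levels are given as CPM, counts scaled to a common library size by the trimmed mean of M values (TMM), and always in the order control replicate 1, control replicate 2, Kap1 KD replicate 1, Kap1 KD replicate 2. Trim28 itself was at 456 and 575 CPM in control cells and at 106 and 78.9 CPM in Kap1 KD cells, which left 17.9% of the control mean (log2 fold change -2.48 ± 0.25 SE). It had the lowest p of all tested genes in the edgeR fit (unadjusted p = 0.00021), yet an adjusted p of 0.9999, and it passed the test when any 1 of the 4 libraries was left out (log2 fold change -2.71 to -2.27). Kap1 KD replicate 2 stood apart from the others by Lars2, at 6905 CPM against 239 to 286 CPM, and by the 7SK loci, at 43.0 CPM summed against 1.91 to 2.42 CPM. Of 10 hepatocyte markers, 2 (Apoa1 and Ttr) stayed under 1 CPM in every library, and the 10 summed to between 4458 and 5695 CPM, carried by Krt8, Krt18, Alb and Afp. Immune cell markers, 8 of 12 with a row, summed to between 21.7 and 39.9 CPM, with Cd14 at 16.7 to 29.0 CPM and 5 of the 8 under 1 CPM in every library, and endothelial markers to between 0.197 and 0.376 CPM. Stellate cell and fibroblast markers, 5 of 6 with a row, summed to between 1229 and 1701 CPM. Nearly all of this was Dcn (1227 to 1700 CPM), while Col1a1 was at 0.575 to 1.52 CPM. The other 3 (Col1a2, Acta2 and Pdgfrb) had no more than 3 counts in any library.

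No member was called between Kap1 KD and control cells in the fit without a replicate term. A gene was called at a change of at least 1.5-fold and a Benjamini-Hochberg adjusted p under 0.05 in edgeR's quasi-likelihood test, and 0 of 14142 tested genes (0%) passed in either direction. Of the 48 members, 40 had enough counts to be tested, and none of them had an unadjusted p under 0.05, against 1.31% of all tested genes (185 genes). The lowest unadjusted p of a member was 0.0612, for Dhx58. DESeq2 with the same groups called 2 genes higher and 1 lower of all 21915 (0.00913% and 0.00456%) and limma voom called none, and no member was among them. With 2 libraries against 2, an exact permutation test of a single gene cannot give a two-sided p under 0.333.

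The direction of the small differences was uneven. The fitted log2 fold change was below 0 for 27 of the 40 tested members, against 52.9% of all tested genes, and its median was -0.18 against -0.02. Both Kap1 KD libraries lay below both controls for 12 of the 40 members, while this held for 10.6% of all tested genes. The reverse, both Kap1 KD libraries above both controls, was found for 3 of 40 members and 9.69% of all tested genes. Between same-numbered libraries, 25 members were lower in Kap1 KD in both comparisons (38.1% of all tested genes) and 10 were higher in both (32.8%), with medians over the 40 members of -0.14 in replicate 1 and -0.18 in replicate 2. The median moved to -0.085 without control replicate 2 and to between -0.23 and -0.21 without any 1 of the other libraries, and with 1 library fewer the non-overlapping members numbered 19 to 21 below (23.3% to 38.7% of all tested genes) and 6 to 9 above (21.9% to 36.3%). Among the hepatocyte markers, for 6 of 10 (Alb, Afp, Apoa1, Apob, Trf and Fgb) both Kap1 KD libraries lay below both controls, and for none above. Apob, the main protein of very low density lipoprotein, was at 30.1 and 30.3 CPM in the controls and 14.6 and 11.5 CPM in the Kap1 KD libraries (log2 fold change -1.21 ± 0.22 SE, adjusted p = 0.9999), and Alb, serum albumin, at 1579.9 and 1036.5 against 975 and 441 CPM. Their part in the members' differences was not tested.

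At the median, the members' fitted changes were smaller than the differences between libraries of 1 group. The median absolute change of the members was 0.23 on the log2 scale, against 0.15 over all tested genes. Their median absolute difference between the control libraries was 0.33 (0.35 over all tested genes). Between the Kap1 KD libraries it was 0.40 (0.39 over all tested genes). A fitted change averages 2 libraries per group and a difference between libraries does not, so their sizes are not directly comparable. For 24 of the 40 members the controls differed from each other by more than the fitted change, as did 74.2% of all tested genes. Only 3 members had a fitted change beyond 1.5-fold, all downward (Mx2, Dhx58 and Oasl2), and none had one upward.

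**Figure D1:**
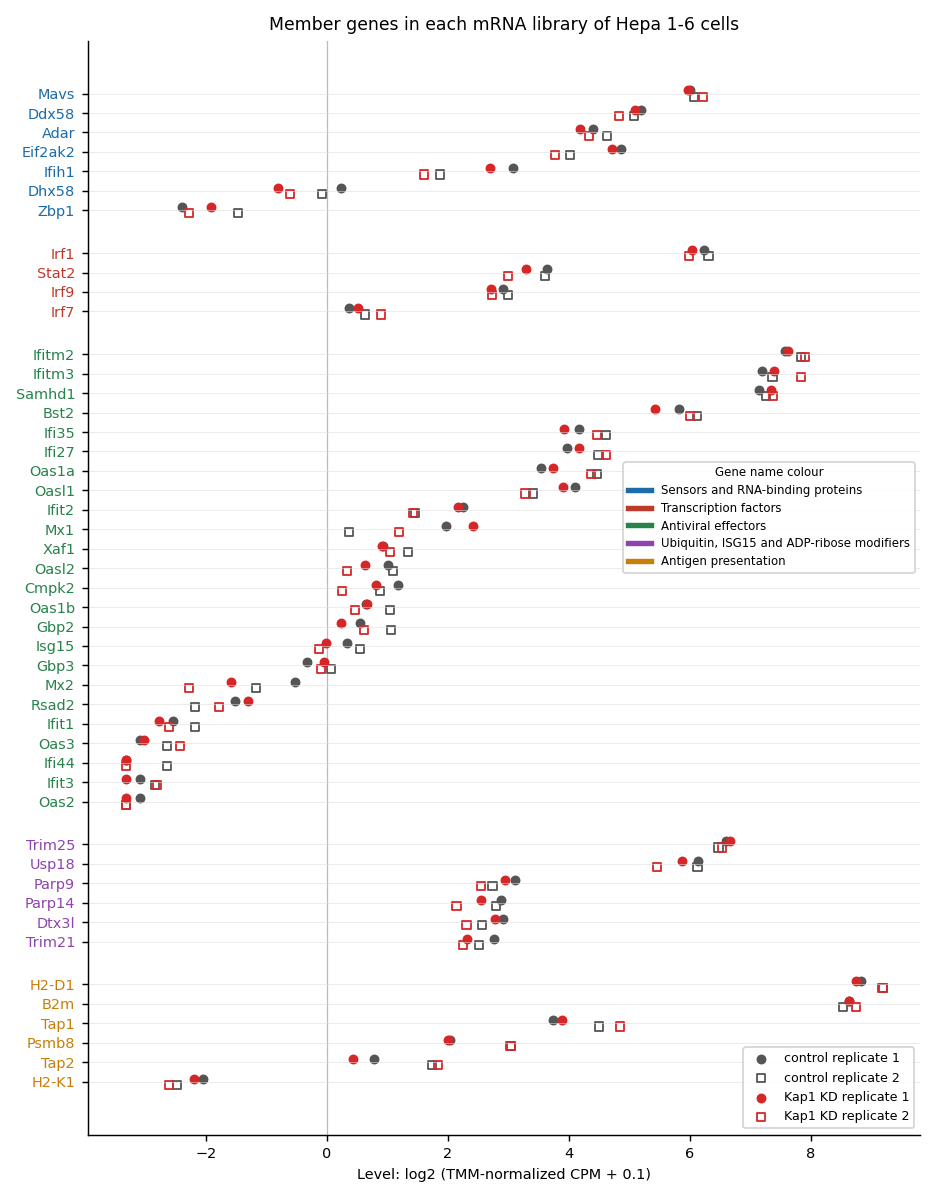
Level of the 47 members with a row, as log2 of TMM-normalized CPM plus 0.1, in each of the 4 libraries (filled circles, replicate 1; open squares, replicate 2; grey, control; red, Kap1 KD), ordered within each role by control level. The values of 1 gene lie close together compared with the spread between genes, and for Tap1, Tap2, Psmb8, Mx1 and Ifih1 the replicate numbers separate more than the groups do.

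The level of the members in control cells, per kilobase of exon, ran over several orders of magnitude. Below 1 CPM per kb lay 21 members, 14 lay between 1 and 10, and 12 above 10, while the median of all tested genes was 5.63 CPM per kb and 23.1% of them were under 1. The highest were B2m (444 CPM per kb), Ifitm2 (320.2), Ifitm3 (229.7), H2-D1 (199.8) and Bst2 (82.4). At the other end, Ifit3, Oas2 and Ifi44 had no more than 3 counts in any library, where 3 counts correspond to 0.056 to 0.0722 CPM by library. With so few counts, a difference between groups was not detectable for these genes at this depth.

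Promoter sequences of the members were read from RefSeq (GRCm38.p6), as windows from 250 bases before to 50 after each annotated start of transcription, and 37 of the 48 members had one. The windows were searched on both strands for an ISRE core, here a pair of GAAA runs with any 2 bases between them (on the other strand a pair of TTTC runs), and for a gamma-activated sequence (GAS), TTCNNNGAA, an element of interferon gamma target genes. An ISRE core was found for 17 of the 37 members (45.9%), against 3.99% of 27025 gene symbols with a window, and a GAS for 10 (27%) against 9.55%. By role, the ISRE core was found in 11 of 19 effectors, 3 of 5 sensors, 1 of 4 transcription factors, 1 of 3 modifiers and 1 of 6 antigen presentation genes. A match is a description of the letters and not a tested binding site.

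Stretches around the matches, with ISRE cores in capitals (for Irf1, the GAS), are printed for abundant members, classical effectors and Irf1, to show the element that the interferon-activated factor reads, from 5′ to 3′ on the strand of the gene. They are numbered from the start of transcription, the start itself being 0.
Isg15 (chr4:156200860-156200911, minus strand, bases -93 to -42): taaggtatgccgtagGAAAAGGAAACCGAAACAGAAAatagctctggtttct
Ifit1 (chr19:34640770-34640828, plus strand, bases -119 to -61): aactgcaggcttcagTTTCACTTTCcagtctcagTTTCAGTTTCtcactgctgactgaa
Ifit3 (chr19:34583358-34583431, plus strand, bases -171 to -98): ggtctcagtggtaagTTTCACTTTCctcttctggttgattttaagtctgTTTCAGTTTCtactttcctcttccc
Rsad2 (chr12:26456548-26456587, minus strand, bases -135 to -96): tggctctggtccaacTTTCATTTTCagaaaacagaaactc
Bst2 (chr8:71537572-71537617, minus strand, bases -145 to -100): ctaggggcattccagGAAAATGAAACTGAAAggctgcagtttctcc
Gbp2 (chr3:142620589-142620628, plus strand, bases -74 to -35): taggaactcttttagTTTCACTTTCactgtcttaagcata
B2m (chr2:122147533-122147572, plus strand, bases -154 to -115): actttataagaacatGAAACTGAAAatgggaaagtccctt
Ifitm2 (chr7:140955983-140956022, minus strand, bases -61 to -22): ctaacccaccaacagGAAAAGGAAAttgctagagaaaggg
Irf1 (chr11:53769909-53769947, plus strand, bases -105 to -67): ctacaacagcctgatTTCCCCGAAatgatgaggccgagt
Isg15 held 3 overlapping ISRE cores, Ifit1 and Ifit3 held 2 separate ones each, and Bst2 held 2 overlapping ones, and also a GAS (bases -136 to -128) that overlaps the first of them and is not marked. Irf1 held a GAS and no ISRE core. On Kap1 KD, 8 of the 14 tested members with an ISRE core had a log2 fold change below 0, with a median of -0.17. Of the 17 tested members with a window but no ISRE core, 12 were below 0, and the median was also -0.17.

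**Figure D2:**
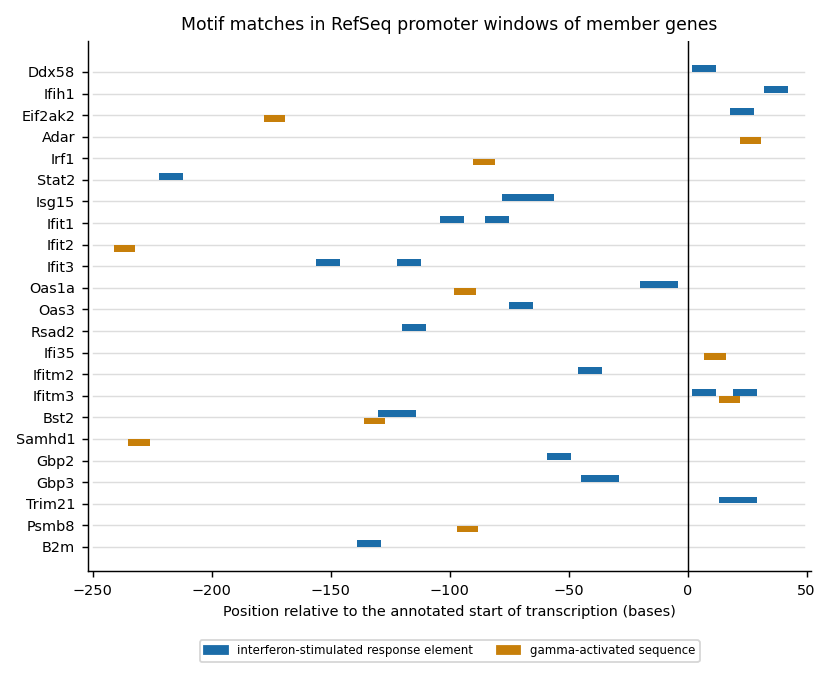
Positions of ISRE cores (blue) and gamma-activated sequences (orange) in the promoter windows of the members that held either, in bases from the annotated start of transcription (vertical line). Most ISRE cores of the effectors lie before the start, and those of Ddx58, Ifih1, Eif2ak2, Ifitm3 and Trim21 lie after it.

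Sensors of foreign or self nucleic acid spanned low to moderate levels, and none was called in the fit without a replicate term. Ddx58, now named Rigi, encodes RIG-I, which binds double-stranded RNA with a triphosphate end. It was at 36.6 and 33.5 CPM in the controls and 33.99 and 28.4 CPM in the Kap1 KD libraries. Ifih1 encodes MDA5, the sensor of long double-stranded RNA, and was at 8.31 and 3.57 CPM in the controls and 6.39 and 2.95 CPM in the Kap1 KD libraries. Its values separated by replicate number rather than by group, both replicate 2 libraries being the lower. Mavs, the mitochondrial adaptor of both sensors, was at 64.1 and 67.1 CPM in the controls and 62.7 and 74.4 CPM in the Kap1 KD libraries, with the groups overlapping. Dhx58 encodes LGP2, a regulator of RIG-I and MDA5, and was at 1.08 and 0.847 CPM in the controls and 0.469 and 0.556 CPM in the Kap1 KD libraries. Both Kap1 KD libraries lay below both controls, and its log2 fold change of -0.90 ± 0.37 SE (adjusted p = 0.9999) was the lowest among the members after that of Mx2. Dhx58 lies at chr11:100556018-100565585, minus strand (mm9) and rests on 60, 42, 20 and 26 counts.

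Other genes of this group act on RNA once it is double-stranded. Eif2ak2 encodes PKR, the kinase that stops translation on binding double-stranded RNA. It was at 28.9 and 16.1 CPM in the controls and 26.03 and 13.6 CPM in the Kap1 KD libraries, both replicate 2 libraries being the lower. Adar, which edits adenosines in double-stranded RNA, was at 21.04 and 24.6 CPM in the controls and 18.1 and 20.1 CPM in the Kap1 KD libraries, so that both Kap1 KD libraries lay below both controls by a small margin (log2 fold change -0.25 ± 0.21 SE). Zbp1, a sensor of Z-form nucleic acid, had 5, 13, 7 and 5 counts and was not tested. In all, 5 of the 6 tested sensors were below 0 (52.9% of all tested genes), with a median of -0.22. Both Kap1 KD libraries lay below both controls for 2 of them, Dhx58 and Adar (10.6% of all tested genes).

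Among the transcription factors, 3 of 4 were lower in both Kap1 KD libraries than in both controls, as were 10.6% of all tested genes. Irf1, which interferon gamma induces through a GAS such as the one printed above, was at 75.1 and 79.1 CPM in the controls and 65.1 and 63.02 CPM in the Kap1 KD libraries (log2 fold change -0.27 ± 0.17 SE). Stat2 and Irf9 encode parts of the factor that binds the ISRE. Stat2 was at 12.4 and 12.03 CPM in the controls and 9.72 and 7.91 CPM in the Kap1 KD libraries (log2 fold change -0.47 ± 0.24 SE), and Irf9 at 7.43 and 7.90 CPM in the controls and 6.46 and 6.56 CPM in the Kap1 KD libraries (log2 fold change -0.24 ± 0.23 SE). The controls of these 3 genes differed from each other by no more than 0.09 on the log2 scale, less than each fitted change. The Kap1 KD libraries differed by -0.05 for Irf1, -0.29 for Stat2 and 0.02 for Irf9 (replicate 2 minus replicate 1). Such differences and the fitted changes are not directly comparable in size. Irf7, the factor that amplifies the production of interferon alpha and is itself strongly induced by interferon, was at 1.18 and 1.45 CPM in the controls and 1.34 and 1.75 CPM in the Kap1 KD libraries. Its groups overlapped and its log2 fold change was 0.23 ± 0.34 SE (adjusted p = 0.9999), from 0.031 without Kap1 KD replicate 2 to 0.41 without Kap1 KD replicate 1.

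Antiviral effectors were led by the IFITM proteins, which block the entry of enveloped viruses into cells. Ifitm2 was at 189.9 and 227 CPM in the controls and 198 and 239.6 CPM in the Kap1 KD libraries (log2 fold change 0.07 ± 0.20 SE, adjusted p = 0.9999), where the replicate 2 libraries were the higher pair. Its direction turned to -0.06 without control replicate 1 and to -0.070 without Kap1 KD replicate 2. Within the same replicate number Ifitm2 was higher in Kap1 KD by 0.057 and 0.077. Ifitm3 was at 147 and 165 CPM in the controls and 168 and 228 CPM in the Kap1 KD libraries, above both controls in both Kap1 KD libraries (log2 fold change 0.35 ± 0.22 SE, adjusted p = 0.9999). The change ran from 0.12 without Kap1 KD replicate 2 to 0.55 without Kap1 KD replicate 1. Both lie on chromosome 7 (mm9, Ifitm2 at chr7:148140736-148141882, minus strand, and Ifitm3 at chr7:148195485-148196669, minus strand), and as they are near copies and each read was kept at 1 alignment, counts may be split between them. Bst2, encoding tetherin, which holds budding virus on the cell, was at 56.7 and 69.2 CPM in the controls and 42.6 and 64.2 CPM in the Kap1 KD libraries. Samhd1, which depletes the nucleotides that reverse transcription needs, was at 141 and 153 CPM in the controls and 163 and 166 CPM in the Kap1 KD libraries, above both controls in both Kap1 KD libraries (log2 fold change 0.16 ± 0.16 SE, adjusted p = 0.9999, with 0.10 without control replicate 1 and 0.24 without control replicate 2).

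**Figure D3:**
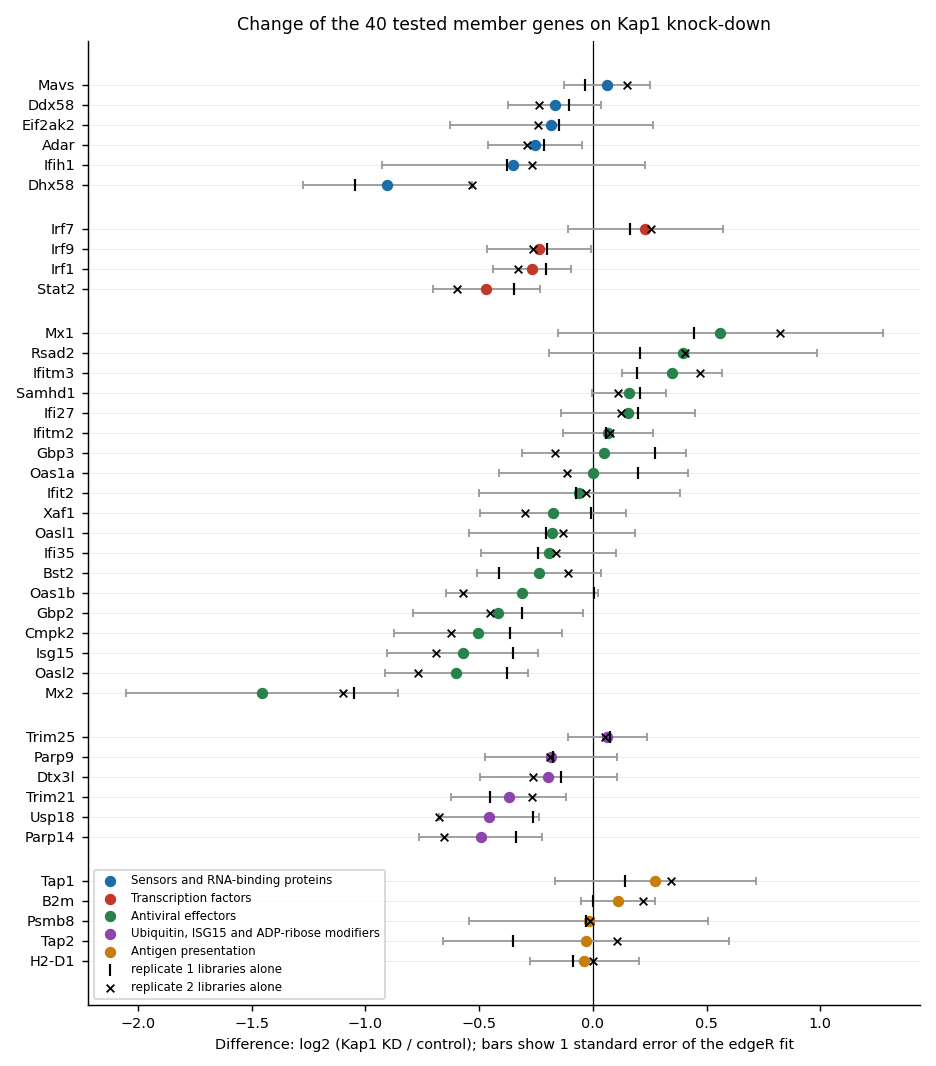
Fitted log2 fold change (Kap1 KD over control, coloured points) of the 40 tested members with 1 standard error of the edgeR fit, and the log2 change between replicate 1 libraries (bars) and between replicate 2 libraries (crosses). Of the 40 points, 27 lie left of 0, and Mx2 and Dhx58 lie farthest from it.

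Isg15, the ubiquitin-like protein that interferon induces and that is conjugated to other proteins, had 3 ISRE cores in its promoter window and stayed near 1 CPM in all libraries. It was at 1.17 and 1.37 CPM in the controls and 0.892 and 0.812 CPM in the Kap1 KD libraries, from 65, 68, 38 and 38 counts. Both Kap1 KD libraries lay below both controls (log2 fold change -0.57 ± 0.33 SE, adjusted p = 0.9999). Isg15 lies at chr4:155573533-155574927, minus strand (mm9). The IFIT proteins, which bind viral RNA that lacks the cap methylation of the host, were represented by Ifit2, at 4.65 and 2.64 CPM in the controls and 4.41 and 2.59 CPM in the Kap1 KD libraries. Ifit1 had 4, 6, 2 and 3 counts, and Ifit3 had 1, 2, 0 and 2 counts, next to no mRNA in either group, with 2 ISRE cores in each promoter window. The Ifit genes are related in sequence and their counts are uncertain to that extent.

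The OAS enzymes make 2'-5' linked oligoadenylates in response to double-stranded RNA, and the OASL proteins are relatives. Oas1a was at 11.5 and 22.1 CPM in the controls and 13.2 and 20.4 CPM in the Kap1 KD libraries, higher in both replicate 2 libraries. Oas1b, a near copy of it whose counts may be mixed with it, was at 1.47 and 1.96 CPM in the controls and 1.48 and 1.28 CPM in the Kap1 KD libraries. Oasl1 was at 17.1 and 10.6 CPM in the controls and 14.8 and 9.64 CPM in the Kap1 KD libraries, lower in both replicate 2 libraries. Oasl2 was at 1.92 and 2.04 CPM in the controls and 1.46 and 1.15 CPM in the Kap1 KD libraries, below both controls in both Kap1 KD libraries (log2 fold change -0.60 ± 0.32 SE, adjusted p = 0.9999). It lies at chr5:115346943-115362243, plus strand (mm9). Oas3 had 1, 3, 1 and 4 counts, and Oas2 had 1, 0, 0 and 0 counts, so neither was tested.

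The Mx GTPases, which trap viral nucleocapsids, had log2 fold changes of opposite sign. Mx2 had 33, 17, 10 and 5 counts, which is 0.592 and 0.343 CPM in the controls and 0.235 and 0.107 CPM in the Kap1 KD libraries. Both Kap1 KD libraries were below both controls, and the log2 fold change of -1.46 ± 0.60 SE (adjusted p = 0.9999) was the lowest among the members. Mx1 had the highest, at 3.82 and 1.19 CPM in the controls and 5.23 and 2.18 CPM in the Kap1 KD libraries (log2 fold change 0.56 ± 0.71 SE, adjusted p = 0.9999). Its groups overlapped, the controls differed from each other by -1.61 on the log2 scale (replicate 2 minus replicate 1), and the direction turned to -0.03 without control replicate 2 and to -0.20 without Kap1 KD replicate 1. Within the same replicate number Mx1 was higher in Kap1 KD by 0.44 and 0.82, while Mx2 was lower (-1.05 and -1.10). The genes lie on chromosome 16 (mm9), Mx1 at chr16:97668642-97684514, minus strand, and Mx2 at chr16:97757690-97782506, plus strand.

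Rsad2 and Cmpk2 are neighbours on chromosome 12 and act on nucleotide pools, the first (viperin) by making a chain-terminating nucleotide. Rsad2 had only 14, 6, 13 and 9 counts (log2 fold change 0.40 ± 0.59 SE, adjusted p = 0.9999), and Cmpk2 was at 2.17 and 1.73 CPM in the controls and 1.67 and 1.09 CPM in the Kap1 KD libraries (log2 fold change -0.50 ± 0.37 SE, adjusted p = 0.9999). The groups overlapped for Rsad2 and did not for Cmpk2. The log2 fold change of Rsad2 was 0.00017 without control replicate 2, 0.037 without Kap1 KD replicate 1, 0.71 without Kap1 KD replicate 2 and 1.02 without control replicate 1. That of Cmpk2 ran from -0.84 without Kap1 KD replicate 1 to -0.22 without Kap1 KD replicate 2, with -0.33 without control replicate 1. Gbp2 and Gbp3, interferon-inducible GTPases that act on pathogen vacuoles and are close copies, were at 1.36 and 1.995 against 1.08 and 1.43 CPM and at 0.700 and 0.947 against 0.869 and 0.834 CPM respectively. Neither separated the groups.

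Among the other effectors no group difference stood out. Ifi35, an interferon-induced leucine zipper protein, was at 17.8 and 24.5 CPM in the controls and 15.1 and 21.9 CPM in the Kap1 KD libraries, and Ifi27 (named Ifi27l1 in the annotation of the files' build), a mitochondrial membrane protein, at 15.5 and 22.4 CPM in the controls and 17.8 and 24.4 CPM in the Kap1 KD libraries. Xaf1, which promotes apoptosis, was at 1.80 and 2.44 CPM in the controls and 1.78 and 1.97 CPM in the Kap1 KD libraries. Ifi44 had 0, 3, 0 and 0 counts. Of the 19 tested effectors, 11 were below 0 with a median of -0.17. The Kap1 KD libraries lay below both controls for 4 of them (Isg15, Oasl2, Mx2 and Cmpk2), against 10.6% of all tested genes. They lay above both for 2 (Ifitm3 and Samhd1), against 9.69% of all tested genes.

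Modifiers of the response, which attach or remove ubiquitin, ISG15 or ADP-ribose, included 3 of 6 with both Kap1 KD libraries below both controls (10.6% of all tested genes). Usp18, which removes ISG15 from proteins and blocks signalling at the interferon receptor, is induced by interferon, yet at 39.5 CPM per kb in control cells it was far above Isg15 (1.68 CPM per kb). It was at 70.2 and 69.7 CPM in the controls and 58.4 and 43.6 CPM in the Kap1 KD libraries (log2 fold change -0.45 ± 0.22 SE), and replicate 1 and replicate 2 comparisons gave -0.26 and -0.67. Parp14, an ADP-ribosyl transferase, was at 7.27 and 6.85 CPM in the controls and 5.73 and 4.32 CPM in the Kap1 KD libraries (log2 fold change -0.49 ± 0.27 SE, adjusted p = 0.9999, with -0.29 without Kap1 KD replicate 2). Trim21, an antibody receptor and ubiquitin ligase of the cytosol, was at 6.68 and 5.62 CPM in the controls and 4.86 and 4.66 CPM in the Kap1 KD libraries (log2 fold change -0.37 ± 0.25 SE).

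Parp9 and its partner Dtx3l, a ubiquitin ligase, are transcribed away from each other and overlap at their starts. Parp9 was at 8.58 and 6.57 CPM in the controls and 7.58 and 5.75 CPM in the Kap1 KD libraries, and Dtx3l at 7.45 and 5.84 CPM in the controls and 6.76 and 4.85 CPM in the Kap1 KD libraries, and both overlapped between the groups. The strand setting of the counting is not given in the sources used here, so reads in the overlap cannot be assigned with certainty. Trim25, the ubiquitin ligase that activates RIG-I, was at 96.2 and 88.7 CPM in the controls and 101 and 92.1 CPM in the Kap1 KD libraries, the only modifier above 0 (log2 fold change 0.06 ± 0.17 SE). The median of the 6 modifiers was -0.28.

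Antigen presentation genes hardly differed between the groups on average and differed widely between the replicate numbers. B2m, the constant light chain of class I molecules, was the most abundant member, at 395 and 369 CPM in the controls and 395 and 430.2 CPM in the Kap1 KD libraries (log2 fold change 0.11 ± 0.16 SE, adjusted p = 0.9999, from 0.057 without Kap1 KD replicate 2 to 0.17 without Kap1 KD replicate 1). Kap1 KD replicate 1 exceeded control replicate 1 by less than 0.1 CPM, so that its place above both controls is nominal. B2m lies at chr2:121973422-121978819, plus strand (mm9). H2-D1, a class I heavy chain, was at 453 and 581 CPM in the controls and 427 and 581 CPM in the Kap1 KD libraries, with both replicate 2 libraries higher. H2-K1, the other classical heavy chain on the list, had only 8, 4, 5 and 3 counts and was not tested. The class I genes are near copies and 1 alignment was kept for each read, so the split of reads between H2-D1, H2-K1 and their relatives is uncertain.

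The transporter that carries peptides into the endoplasmic reticulum is made of TAP1 and TAP2. Tap1 was at 13.2 and 22.6 CPM in the controls and 14.6 and 28.7 CPM in the Kap1 KD libraries (log2 fold change 0.27 ± 0.44 SE, adjusted p = 0.9999). Its direction turned to -0.06 without control replicate 1 and to -0.29 without Kap1 KD replicate 2. Within the same replicate number Tap1 was higher in Kap1 KD by 0.14 and 0.34. Tap2 was at 1.62 and 3.22 CPM in the controls and 1.24 and 3.48 CPM in the Kap1 KD libraries. Psmb8, a catalytic subunit of the immunoproteasome, was at 4.004 and 8.18 CPM in the controls and 3.92 and 8.10 CPM in the Kap1 KD libraries. Tap1 overlaps Psmb9 on the other strand in the annotation. In all 3 genes both replicate 2 libraries lay above both replicate 1 libraries, and the controls differed by 0.77, 0.95 and 1.01 on the log2 scale. The median log2 fold change of the 5 tested genes of antigen presentation was -0.02, beside a median absolute difference between the controls of 0.77. Cd14, which carries the sum of the immune markers, was likewise higher in both replicate 2 libraries. It was at 17.1 and 29.0 CPM in the controls and 16.7 and 24.6 CPM in the Kap1 KD libraries. Ptprc, which defines leukocytes, had 4 to 8 counts in these libraries of a cell line. Why Tap1, Tap2, Psmb8 and Cd14 differed between the replicate numbers was not tested.

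**Figure D4:**
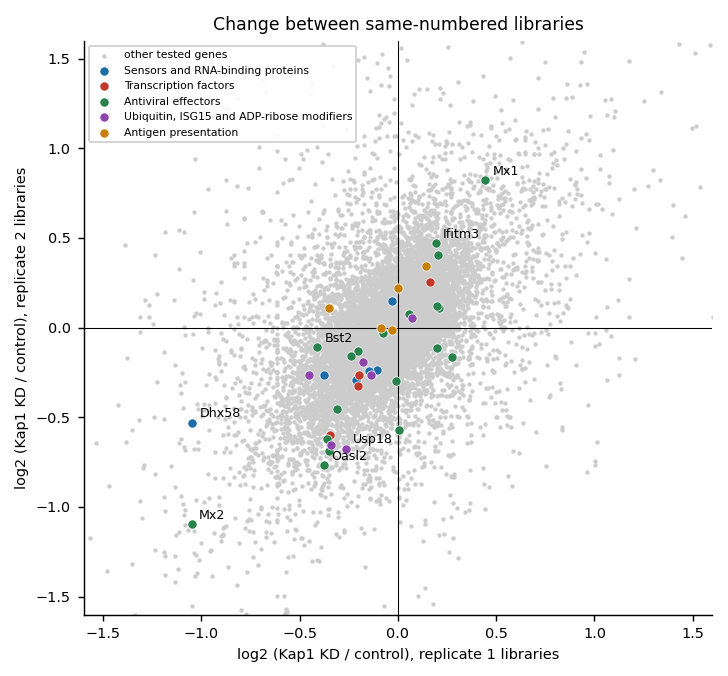
Log2 change of Kap1 KD over control between replicate 1 libraries (horizontal) and between replicate 2 libraries (vertical) for the members (coloured by role) and the other tested genes (grey), with genes of larger change outside the axes. Of the 40 members, 25 lie in the lower left quadrant and 10 in the upper right one.

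The differences between replicate numbers went with base composition. The difference between the controls (replicate 2 minus replicate 1, log2) rose with the GC content of the transcript, with a Spearman's rho of 0.57 over the 40 tested members and 0.62 over the 12417 tested genes with a GC value, across genes that share the same libraries. Ifih1 and Eif2ak2, with a GC content of 42.8% and 43.9%, were among the members that were lower in replicate 2, and Tap1, Tap2 and Psmb8, with 57.3%, 56.9% and 55.8%, were higher. Not every member followed the trend, as the difference between the controls was -0.69 for Oasl1 (56.3%) and -0.10 for B2m (41.2%). By role, rho ran from 0.24 over the 19 tested effectors to 0.89 over the 6 tested sensors. The fitted change on Kap1 KD had a rho with GC content of 0.07 over the members and 0.35 over all tested genes. The part of base composition in the members' changes was not tested.

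**Figure D5:**
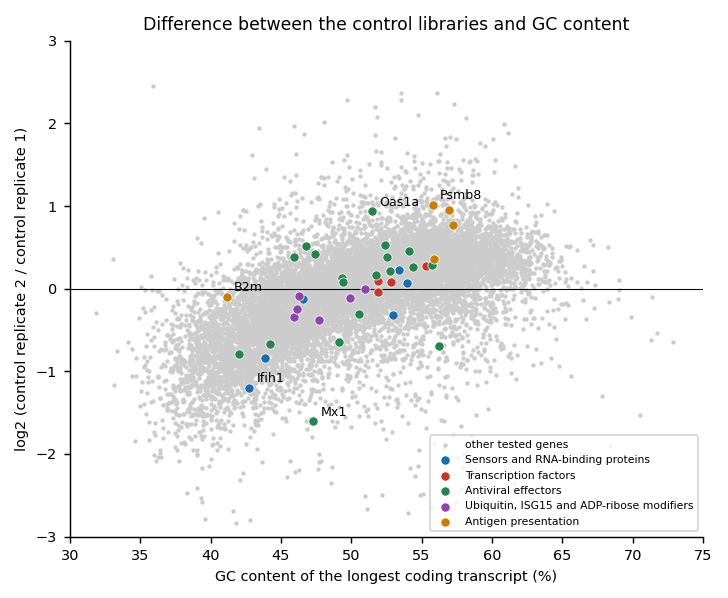
Log2 difference between control replicate 2 and control replicate 1 (vertical) against GC content of the longest coding transcript (horizontal, %), for the 40 tested members (coloured by role) and the other tested genes with a GC value (grey), with some genes outside the axes. Ifih1, with low GC content, lies below 0 and Psmb8, with high GC content, above it, and Mx1 lies lowest among the members.

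Genes around the members in the pathway were taken from 4 wider lists of 102 genes, of which 93 had a row and 81 were tested. In the fit without a replicate term, no gene of these lists was called in either direction (0% of all tested genes), and none had an unadjusted p under 0.05. Of the 81, 45 were below 0 (52.9% of all tested genes), with a median of -0.05. Both Kap1 KD libraries lay below both controls for 15 (10.6% of all tested genes) and above for 6 (9.69%).

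The ligands were at the limit of detection. Ifnb1, interferon beta, had 2, 1, 1 and 0 counts, and Ifne had 0, 0, 0 and 1 counts. The other interferon genes on the list were not analysed here. The receptor and its kinases were well expressed and overlapped between the groups, with Ifnar1 at 62.8 and 81.6 against 62.2 and 79.1 CPM, Ifnar2 at 15.2 and 15.5 against 15.5 and 18.1 CPM, Jak1 at 103 and 104 against 105 and 95.3 CPM and Tyk2 at 11.8 and 14.3 against 12.4 and 17.9 CPM (controls against Kap1 KD). Socs1, a feedback inhibitor of JAK kinases, had the highest log2 fold change of this list (0.55 ± 0.46 SE), which rested on Kap1 KD replicate 2 alone (1.54 and 1.51 against 1.41 and 3.06 CPM). The lowest was that of Jak2 (-0.34 ± 0.60 SE), whose groups overlapped.

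In the DNA and RNA sensing list, the gene of cGAS, Mb21d1, had 3, 0, 2 and 0 counts, whereas Tmem173, encoding its adaptor STING, was at 96.1 and 108 CPM in the controls and 107 and 132 CPM in the Kap1 KD libraries. Irf3, the factor that STING and MAVS activate, was at 41.99 and 49.5 CPM in the controls and 42.8 and 55.3 CPM in the Kap1 KD libraries. Tlr3, the endosomal receptor of double-stranded RNA, had the lowest log2 fold change of the list (-0.40 ± 0.46 SE), at 3.84 and 2.10 CPM in the controls and 2.84 and 1.67 CPM in the Kap1 KD libraries. Myd88, the adaptor of most Toll-like receptors, had the highest (0.39 ± 0.26 SE), at 12.5 and 16.7 CPM in the controls and 16.9 and 21.2 CPM in the Kap1 KD libraries, above both controls in both Kap1 KD libraries. Of the 17 tested genes, 10 were below 0 with a median of -0.05.

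Of the 33 other interferon-induced genes tested, both Kap1 KD libraries lay below both controls for 10 (10.6% of all tested genes) and above for 3 (9.69%). A log2 fold change below 0 was found for 20 of them (52.9% of all tested genes), with a median of -0.14. Gbp7, a further guanylate-binding GTPase, was at 1.13 and 0.484 CPM in the controls and 0.493 and 0.171 CPM in the Kap1 KD libraries (log2 fold change -1.29 ± 0.71 SE), and Ifi203, of the family of DNA-binding p200 proteins, at 2.48 and 0.363 CPM in the controls and 1.06 and 0.171 CPM in the Kap1 KD libraries (-1.22 ± 1.18 SE). The groups overlapped for both. Irgm1, a GTPase of cell-autonomous defence chosen after its values were seen, was at 82.1 and 90.4 CPM in the controls and 61.5 and 66.3 CPM in the Kap1 KD libraries (-0.43 ± 0.18 SE), below both controls in both Kap1 KD libraries. Cxcl10, a chemokine that interferon induces, had a positive log2 fold change, at 9.25 and 9.13 CPM in the controls and 10.6 and 14.1 CPM in the Kap1 KD libraries (0.42 ± 0.25 SE), above both controls in both Kap1 KD libraries.

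Antigen processing genes were evenly split, 9 of 18 tested being below 0 with a median of -0.02. Nlrc5, the transactivator of class I genes, was at 15.3 and 15.4 CPM in the controls and 14.1 and 16.99 CPM in the Kap1 KD libraries, and Tapbp, encoding tapasin, which loads peptides on class I molecules, at 56.9 and 94.3 CPM in the controls and 53.9 and 91.8 CPM in the Kap1 KD libraries. The lowest log2 fold change was that of H2-Q4, a non-classical class I gene, at 21.5 and 31.5 CPM in the controls and 17.5 and 21.4 CPM in the Kap1 KD libraries (log2 fold change -0.45 ± 0.28 SE), subject to the same doubt about reads shared between class I copies.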

How the data were processed

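The authors aligned the reads to the mouse genome (mm9) with TopHat2 2.0.11, keeping 1 alignment per read, and counted them per gene with HTSeq 0.6.1; these raw counts are what they deposited. The labels name a strand-specific library kit, and the strand setting of the counting is not given in the sources used here. The small RNA tables of the series were not used. Gene symbols, positions, exonic lengths and GC content came from GENCODE vM1 (mm9), which matched 21806 of 21915 identifiers, and promoter windows from RefSeq (GRCm38.p6).

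Counts were filtered (filterByExpr, 14142 genes kept), scaled by TMM and tested with edgeR 4.0.16 (quasi-likelihood test, no replicate term), with p-values adjusted over all tested genes by the Benjamini-Hochberg method. DESeq2 1.42.0 and limma 3.58.1 were alternatives, run in R 4.3.3. The fit was also run on simulated counts with known changes, and that outcome is not given here. Log2 changes between same-numbered libraries used CPM + 0.1. The members and lists were chosen with earlier results of these data known. Library values are given at least for members that reached 1 CPM in any library, and full statistics for the 6 highest and the 6 lowest log2 fold changes and the 3 highest members per kb. Of the wider lists, genes are named by role or by the 3 largest changes in each direction per list, and some of these are not reported here. Reads carry no molecular identifiers, so the counts are of reads and not of molecules.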

Additional observations from a re-analysis of the deposited data

How the results depend on the processing

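No member was called with TMM, with median-of-ratios or total-count scaling, without the count filter, with DESeq2, with limma voom, by adjusted p alone, or with any 1 library left out. Over all genes, leaving out 1 library gave 2 to 45 genes higher and 1 to 20 lower, where the group left with 1 library is assumed to vary like the other, and DESeq2 gave 2 and 1. Without 1 library the non-overlapping members numbered 6 to 9 higher and 19 to 21 lower, as fewer values have to separate, which held for 21.9% to 36.3% and 23.3% to 38.7% of all tested genes. The members' median was -0.23 to -0.085 in those fits. With total counts it was -0.22, and -0.25 in the replicate 2 comparison, where all genes shifted by -0.05 in the fit. With 1 library left out, the log2 fold change of Tap1 ran from -0.29 to 0.73 (-0.06 without control replicate 1 and -0.29 without Kap1 KD replicate 2), that of Mx1 from -0.20 to 1.64 (-0.03 without control replicate 2 and -0.20 without Kap1 KD replicate 1), and that of Ifitm2 from -0.070 to 0.22 (-0.06 without control replicate 1 and -0.070 without Kap1 KD replicate 2). The cause was not tested.

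The labels do not say that equal replicate numbers mark a shared batch, and with 2 pairs the numbers were not taken to pair the libraries, although deviations from the group means of same-numbered libraries correlated at 0.81 over 14142 genes. With the replicate number as a block, edgeR called 292 genes higher and 339 lower (2.06% and 2.4%). Among the members it called Mx1 higher (0.61, adjusted p = 0.0052) and Mx2 (-1.45, adjusted p = 0.0106), Dhx58 (-0.90, adjusted p = 0.0209) and Oasl2 (-0.60, adjusted p = 0.0314) lower, so 1 higher and 3 lower, and 0 higher and 4 lower in the wider lists. By adjusted p alone the block gave 1426 higher and 1626 lower genes (10.1% and 11.5%), 3 and 10 members, and 10 and 15 wider genes. DESeq2 with the block was added after the data were seen, as were both counts with the block by adjusted p alone. It gave an adjusted p for 11718 genes and for 35 of the 40 tested members. Mx2 and Dhx58, which edgeR called with the block, were among the members without one. DESeq2 with the block called 107 genes higher and 125 lower (0.913% and 1.07%), and none of the 35 members. By adjusted p alone it gave 403 and 445 genes (3.44% and 3.8%). Of the members these held 1 higher (Ifitm3) and 1 lower (Usp18), and of the wider genes 1 and 4. Trim28 passed the test with the block (-2.48), with DESeq2 (-2.47), with DESeq2 and the block (-2.48) and with any 1 library left out (-2.71 to -2.27). Under the other alternatives run, the 14 members given with full statistics kept the direction of the log2 fold change, and none passed the fold and adjusted p thresholds together. The depth limits the members with few counts, and the 2 libraries per group limit the test.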
